A study of Mus musculus with 2 samples.

Results

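Cadherins, catenins, claudins and other cell junction genes were examined in a comparison of DNA methylation between sorted cells of the mouse pancreas with and without Neurog3. The genes were chosen by symbol, not by any measured value: numbered cadherins (Cdh) and protocadherins (Pcdh), alpha and delta catenins (Ctnna and Ctnnd), claudins (Cldn), zonula occludens proteins (Tjp), the partitioning defective genes Pard3 and Pard6 and their paralogs, and the Fat cadherins. These symbols matched 89 genes of the RefSeq annotation, of which 87 were protein-coding. The whole deposited table held 3659 names, of which 23 were junction genes of this kind. The other 2 genes that matched by symbol, the noncoding Pard3bos1 and Pard3bos2, were in neither list.

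Whole-genome bisulfite sequencing had been done on 2 libraries of cells from the E14.5 pancreas, enriched by flow sorting for eGFP expressed from the Ngn3 locus (current symbol Neurog3). One came from heterozygous embryos (Ngn3eGFP/+, labelled islet progenitors) and the other from null embryos (Ngn3eGFP/eGFP, labelled endocrine progenitors), both untreated and on a mixed, mostly ICR background. Both groups carried the reporter, and the number and sex of the embryos were not given in the sources used here. With 1 library per genotype there is no replicate error, no test and no p-value for any difference, and a change of methylation within cells cannot be told apart from a change in the mixture or stage of the cells sorted. The deposited table names the genes nearest to regions that were less methylated in null cells (the lower list) and to regions that were more methylated in null cells (the higher list), each gene once per list. It holds no methylation level, coverage, region position or expression value, so the labelled cell type could not be checked against its markers.

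Cadherins are calcium-dependent adhesion proteins whose cytoplasmic tails bind catenins, which link them to actin at the adherens junction. Claudins form the tight junction strands, zonula occludens proteins anchor these strands inside the cell, and Pard3 and Pard6 act in the complex that sets the apical side of an epithelial cell. In the developing pancreas, Neurog3-expressing cells leave the epithelium of the ducts by delamination, which requires them to remodel these junctions, and then gather into islets. Neurog3 null embryos form no islet endocrine cells.

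The junction genes that were named were in the higher list, except Cdh1, the E-cadherin gene. The higher list was also the larger one over all protein-coding genes, with 2645 genes against 331 in the lower list. Of the 87 genes, 22 lay nearest to a region more methylated in null cells, which is 25.3% (exact Clopper-Pearson 95% interval 16.6 to 35.7%, counting error only, and genes of a family are not independent). Among all 21883 protein-coding genes the share was 12.1%. The lower list held 1 of the 87 genes, Cdh1, which is 1.15% (interval 0.0291 to 6.24%), against 1.51% of all protein-coding genes. No junction gene was in both lists, where the share of all protein-coding genes was 0.503%. The remaining 64 genes were in neither list. The share in the lower list was near its background.

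Gene length went along with being named. The 22 genes of the higher list had a median annotated length of 313 kb and ranged from 42.1 to 1574 kb, and the 64 genes in neither list had a median of 19.3 kb. Over all protein-coding genes the medians were 53.3 kb for genes in the higher list alone and 15.1 kb for genes in neither. Among junction genes over 100 kb, 16 of 30 were in the higher list (53.3%, interval 34.3 to 71.7%), against 37.4% of all protein-coding genes of that length. Between 20 and 100 kb the count was 6 of 24 (25%, interval 9.77 to 46.7%), against 13.5%. Under 20 kb it was 0 of 33 (interval 0 to 10.6%), against 6.00%. Cdh1, the gene of the lower list, falls in the middle class, where 1.72% of all genes were in that list, against 0.709% of genes under 20 kb and 4.78% of those over 100 kb. In each of these 3 classes the share of all genes in the higher list lay inside the interval of the junction genes, so a difference within these classes was not detectable with this number of genes. Other divisions gave another answer. In the longest quartile of protein-coding genes (over 44.3 kb), 21 of 42 junction genes were in the higher list (50%, interval 34.2 to 65.8%), against 26.6% of all genes. The junction genes of that quartile were themselves longer, with a median of 158 kb against 90.6 kb, and over 100 kb the medians were 393 and 172 kb. Leaving out the 30 genes over 100 kb moved the share in the higher list from 25.3% to 10.5%. In the classes that remain, the shares of all genes were 6.00% and 13.5%. The 12.1% of all protein-coding genes includes the long ones and is not the background of the 10.5%.

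**Figure D1:**
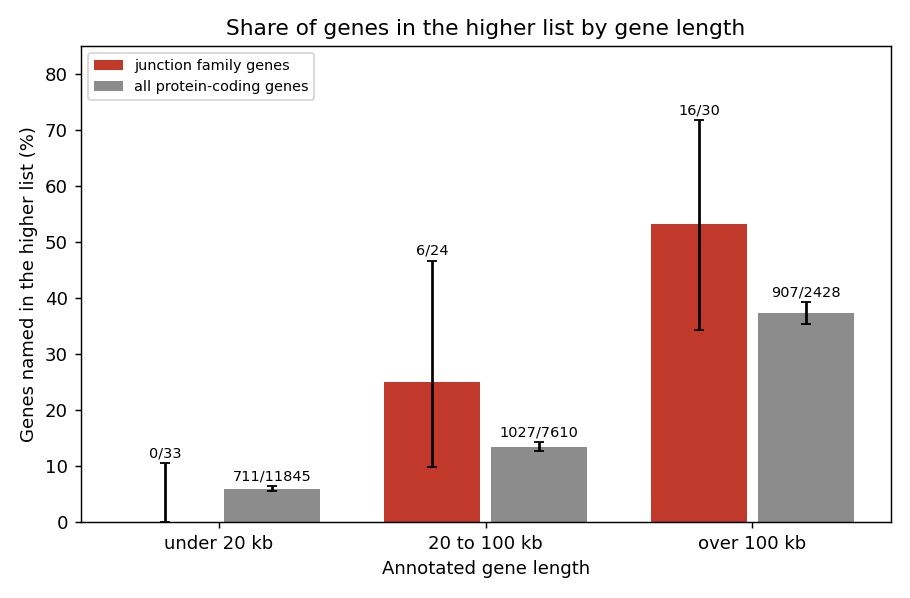
Share of genes named in the higher list (vertical axis, percent) for junction genes (red) and all protein-coding genes (grey) in 3 classes of annotated gene length, with exact 95% intervals and counts above the bars. The share climbs with length in both, from 0 of 33 to 16 of 30 junction genes and from 6.00% to 37.4% of all genes, and the intervals of the junction genes take in the grey bars.

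**Figure D2:**
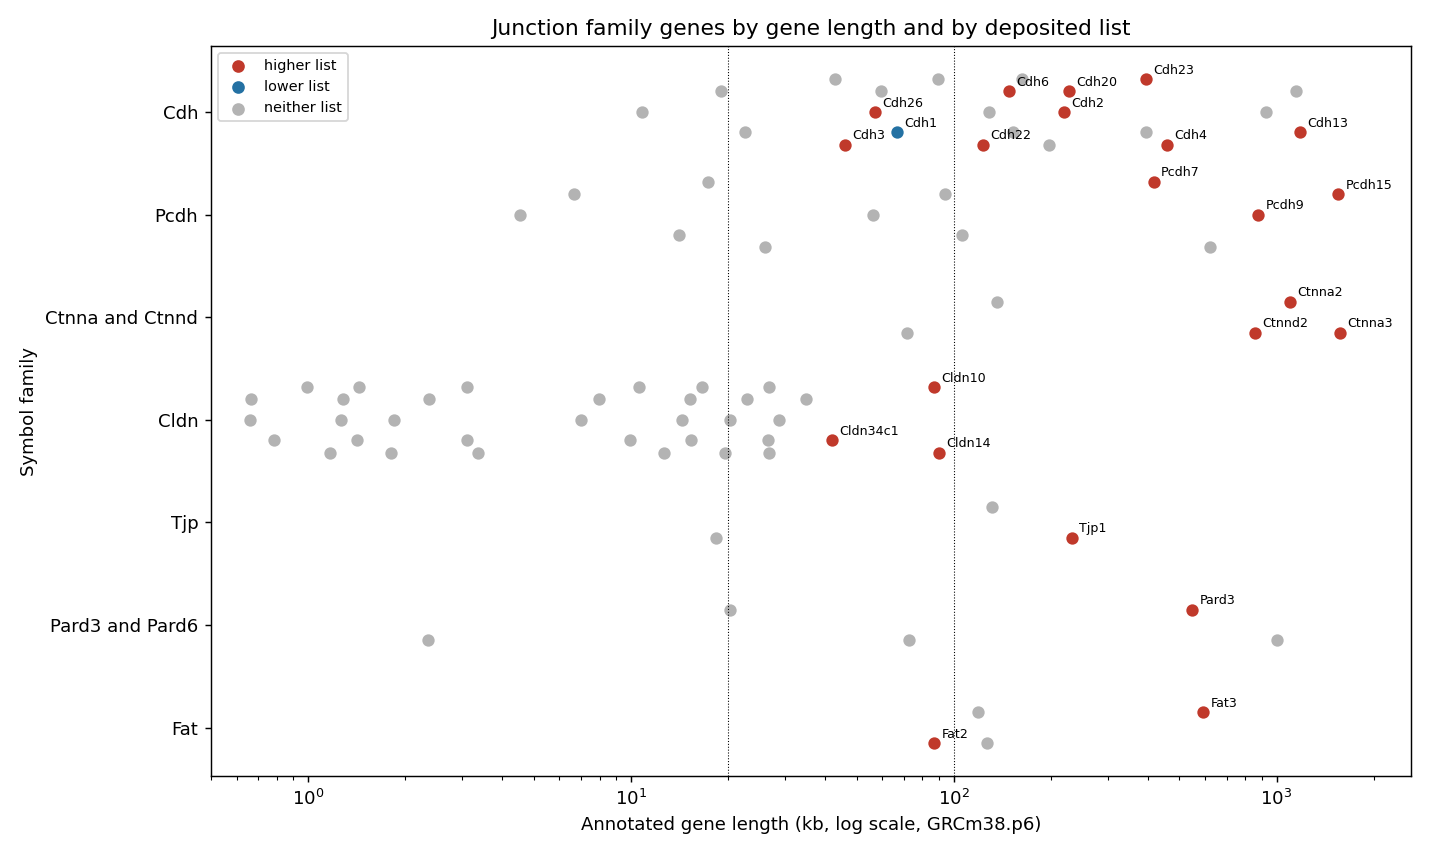
The 87 protein-coding junction genes by symbol family (rows; spread within a row has no meaning) and annotated length in kb on a log scale, with dotted lines at 20 and 100 kb. Genes in the higher list (red, 22) lie at 42.1 kb and above, Cdh1 (blue) is the gene in the lower list, and most claudins (grey) lie to the left.

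The promoters of 4 junction genes are shown as examples of CpG-rich and CpG-poor starts among tight junction and polarity genes, CpG being the site at which mammalian DNA is mostly methylated. Where the differing regions lay relative to these promoters is not given in the table. Each sequence is a RefSeq window on GRCm38.p6 from 250 bases before to 50 bases after an annotated start, 5′ to 3′ on the strand of the gene, with every CpG in capitals. Pard3 (chr8:127063806-127064105, plus strand) and Tjp1 (chr7:65371195-65371494, minus strand) were in the higher list. The Tjp1 window is at a start inside the annotated gene, whose bounds reach 65527850 on that side. Cldn10, also in the higher list, has an upstream start (chr14:118787621-118787920, plus strand) and a downstream start (chr14:118854700-118854999, plus strand). Cldn4 (chr5:134946885-134947184, minus strand), a claudin of simple epithelia, was in neither list.
Pard3: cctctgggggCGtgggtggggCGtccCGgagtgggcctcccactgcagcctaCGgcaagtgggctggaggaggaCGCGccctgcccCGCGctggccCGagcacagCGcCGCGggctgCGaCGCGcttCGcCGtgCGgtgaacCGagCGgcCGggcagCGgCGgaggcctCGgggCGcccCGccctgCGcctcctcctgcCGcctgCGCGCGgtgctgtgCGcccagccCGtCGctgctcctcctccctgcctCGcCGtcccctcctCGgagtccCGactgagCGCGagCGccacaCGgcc
Tjp1: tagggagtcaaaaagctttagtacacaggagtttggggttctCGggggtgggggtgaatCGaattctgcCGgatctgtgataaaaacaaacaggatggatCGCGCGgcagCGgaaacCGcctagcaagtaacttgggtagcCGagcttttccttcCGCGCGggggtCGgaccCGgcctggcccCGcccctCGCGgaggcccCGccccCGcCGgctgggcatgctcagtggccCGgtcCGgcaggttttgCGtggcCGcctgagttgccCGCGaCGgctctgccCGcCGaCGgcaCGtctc
Cldn10, upstream start: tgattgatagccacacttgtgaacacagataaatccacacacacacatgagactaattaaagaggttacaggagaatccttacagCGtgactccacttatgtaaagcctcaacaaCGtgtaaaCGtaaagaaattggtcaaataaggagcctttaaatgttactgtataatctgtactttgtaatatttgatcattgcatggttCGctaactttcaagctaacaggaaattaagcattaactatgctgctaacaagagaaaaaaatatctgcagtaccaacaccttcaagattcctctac
Cldn10, downstream start: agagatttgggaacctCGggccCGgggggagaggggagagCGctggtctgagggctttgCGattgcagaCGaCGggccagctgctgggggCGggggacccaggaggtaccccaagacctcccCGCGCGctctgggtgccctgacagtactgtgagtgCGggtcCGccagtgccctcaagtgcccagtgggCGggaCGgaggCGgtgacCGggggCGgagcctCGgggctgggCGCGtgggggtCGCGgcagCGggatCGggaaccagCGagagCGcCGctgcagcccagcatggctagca
Cldn4: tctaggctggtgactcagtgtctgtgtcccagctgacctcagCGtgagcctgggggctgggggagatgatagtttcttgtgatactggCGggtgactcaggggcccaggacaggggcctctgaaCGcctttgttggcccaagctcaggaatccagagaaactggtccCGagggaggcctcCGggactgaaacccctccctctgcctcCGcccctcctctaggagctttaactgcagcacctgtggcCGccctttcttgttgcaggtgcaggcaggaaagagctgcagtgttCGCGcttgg
The windows hold 42 CpG in Pard3, 31 in Tjp1 and 9 in Cldn4. Starts of the same gene differed too. Cldn10 has 4 CpG at its upstream start and 27 at its downstream one, and a second annotated start of Pard3, not shown (127299362 to 127299661), has 5.

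The Cdh genes held more names than any other of the 7 symbol families. Of 23 Cdh genes, 9 were in the higher list (39.1%, interval 19.7 to 61.5%, against 12.1% of all protein-coding genes), 1 in the lower list and 13 in neither. Their median length was 148 kb, and of the 14 Cdh genes over 100 kb 7 were in the higher list (interval 23.0 to 77.0%), against 37.4% of all genes of that length. Cdh1, which encodes E-cadherin, the main cadherin of pancreatic epithelium, lies on chromosome 8 from 106603350 to 106670247 and was in the lower list. Cdh3, which encodes P-cadherin, lies next to it (106510852 to 106556911) and was in the higher list. Cdh2, which encodes N-cadherin, a cadherin of neural and endocrine cells, was also in the higher list (chromosome 18, 16588877 to 16809246). The same held for Cdh4, which encodes R-cadherin (chromosome 2, 179442423 to 179899377). Together with Cdh15, the muscle cadherin gene, which was in neither list, these are the 5 type I classical cadherins. The type I genes therefore divided into 3 in the higher list, 1 in the lower list and 1 in neither. For the higher list the interval was 14.7 to 94.7%, against 12.1% of all protein-coding genes. For the lower list it was 0.505 to 71.6%, which takes in the 1.51% of all protein-coding genes. Over 100 kb, Cdh2 and Cdh4 were 2 of 2 in the higher list (interval 15.8 to 100%, which takes in the 37.4%). The type I genes, like the type II genes below, were grouped after the lists had been seen.

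Cdh1 and Cdh3 are neighbours named in opposite directions. A gap of 46.4 kb without another protein-coding gene separates them. On the other side of Cdh1, across a gap of 12.8 kb, lies Tango6 (106683068 to 106851439), which was in the lower list as well. Zfp90, the next protein-coding gene beyond Cdh3, and Has3, the one beyond Tango6, were in neither list. Because regions were named by their nearest gene, a region between Cdh1 and Tango6 could have named either of them, and the table does not say where it lay. Of the 2535 protein-coding genes in the higher list alone, 135 had a flanking gene in the lower list (5.33%), and Cdh3 was the only one of the 22 junction genes that did. In the opposite view, 70 of the 221 protein-coding genes in the lower list alone had a flanking gene in the higher list (31.7%) and 42 had one in the lower list (19.0%). Cdh1 had both.

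**Figure D3:**
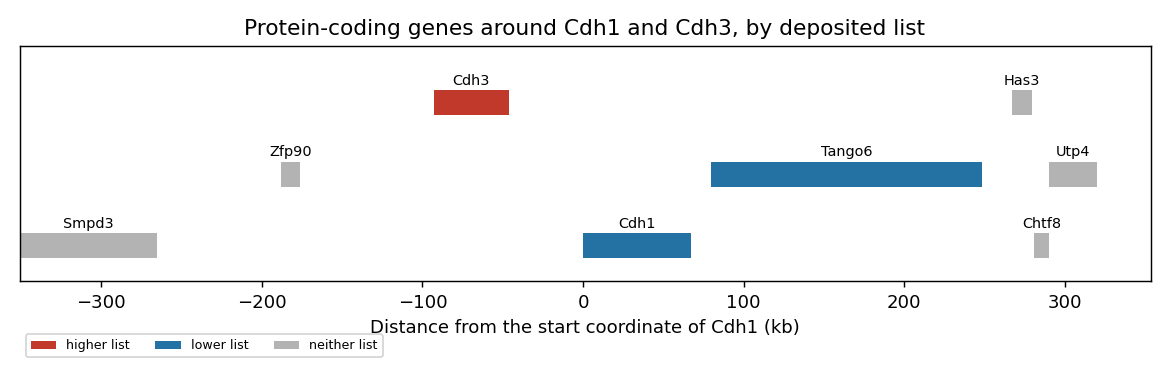
Protein-coding genes around Cdh1, drawn to scale by distance in kb from the start coordinate of Cdh1 and placed on 3 rows for legibility. Cdh3 (higher list, red) lies to the left of Cdh1 (lower list, blue), Tango6 (lower list, blue) lies to its right, and the outer genes (grey) were in neither list. Derpc, in neither list, shares the coordinates of Chtf8 and is not drawn.

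Type II classical cadherins, which sort neurons and mesenchymal cells during development, were grouped after the lists had been seen. Of 13 type II genes, 3 were in the higher list, namely Cdh6 (chromosome 15, 13028699 to 13176407), Cdh20 (chromosome 1, 104768340 to 104995481) and Cdh22 (chromosome 2, 165111501 to 165234924). Of the 10 type II genes over 100 kb the same 3 were named (interval 6.67 to 65.2%, which takes in the 37.4% of all genes of that length), and Cdh7, Cdh8, Cdh9, Cdh10, Cdh11, Cdh12 and Cdh18 were in neither list. The 4 other Cdh genes over 100 kb, Cdh2, Cdh4, Cdh13 and Cdh23, were all in the higher list. On chromosome 15, where Cdh6, Cdh9, Cdh10, Cdh12 and Cdh18 follow one another without another protein-coding gene between their bounds, Cdh6 was the 1 of 5 that was named. At 148 kb Cdh6 is far shorter than Cdh12 (1150 kb) and Cdh18 (929 kb), so within this series of paralogs length and naming did not go together. Cdh5, the endothelial cadherin gene, was in neither list.

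The remaining cadherins of the higher list have specialised roles. Cdh13 (chromosome 8, 118140017 to 119324929) encodes T-cadherin, which is anchored to the membrane by a lipid and lacks the tail that binds catenins. Cdh23 (chromosome 10, 60302748 to 60696513) and Pcdh15 (chromosome 10, 73096277 to 74649831) encode the partners that form the tip links of inner ear hair cells. Cdh26, a cadherin of epithelia, lies on the same chromosome as Cdh4 and Cdh22 (chromosome 2, 178430515 to 178487366). All 3 Cdh genes of that chromosome were in the higher list (interval 29.2 to 100%), against 12.1% of all protein-coding genes. Cdh4 and Cdh22 are over 100 kb, a length at which 37.4% of all genes were in it. On chromosomes 1, 8 and 15 it held 1 of 3, 2 of 8 and 1 of 5 Cdh genes. Chromosomes were compared after the lists had been seen. Cdh16 and Cdh17, cadherins of kidney and of intestinal epithelium, were in neither list. For Cdh23 the nearest gene is ambiguous, since Vsir and Gm17455 lie across or within its bounds, and Gm17455 was also in the higher list.

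Protocadherins, which have no catenin-binding tail and serve mostly in the nervous system, had 3 of 12 genes in the higher list (25%, interval 5.49 to 57.2%, which takes in the 12.1% of all protein-coding genes). These were Pcdh7 (chromosome 5, 57716145 to 58133236), Pcdh9 (chromosome 14, 93013700 to 93892834) and Pcdh15. They are long genes at 417, 879 and 1554 kb, whereas Pcdh11x, at 620 kb the other very long protocadherin gene, lies on the X chromosome and was in neither list. Of 14 junction genes on X, 1 was in the higher list (7.14%), against 2.69% of 966 X-linked protein-coding genes. Clustered protocadherins, a separate group of 57 genes in tandem arrays on chromosome 18 whose annotated bounds overlap, had 1 gene in each list, Pcdhgb5 in the higher and Pcdhb5 in the lower (1.75% each, interval 0.0444 to 9.39%).

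The catenin genes divided by paralog. Ctnna1 and Ctnnd1, which encode the alpha-catenin of epithelia and p120-catenin, the proteins that hold E-cadherin at the adherens junction, were in neither list. Ctnna2 (chromosome 6, 76881637 to 77979815), the neural alpha-catenin gene, Ctnna3 (chromosome 10, 63430098 to 65003667), known from heart and testis, and Ctnnd2 (chromosome 15, 30172534 to 31029344), the neural delta-catenin gene, were in the higher list. The 3 named catenin genes span 857 to 1574 kb, while Ctnna1 spans 136 kb and Ctnnd1 71.9 kb. Shared naming therefore went with length here, and of all protein-coding genes over 500 kb 54.4% lay in the higher list, with 9.73% in the lower one. Ctnna2 and Ctnna3 each hold a leucine-rich repeat gene within their bounds, Lrrtm1 and Lrrtm3, and neither of these was named.

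The claudins that were named were the longest of the family. Of 35 claudin genes, 3 lay in the higher list (8.57%, interval 1.80 to 23.1%, against 12.1% of all protein-coding genes), and the lower list held 0. They were Cldn10 (chromosome 14, 118787871 to 118874525, 86.7 kb), a claudin that forms pores for ions, Cldn14 (chromosome 16, 93919031 to 94008837, 89.8 kb), known from the inner ear and kidney, and Cldn34c1 (X chromosome, 123103523 to 123145654, 42.1 kb). The longest claudin gene in neither list spans 34.9 kb. Cldn3, Cldn4, Cldn6 and Cldn7, the claudins of simple and embryonic epithelia, and Cldn5, that of endothelium, are all under 20 kb and were in neither list. Among the 10 claudin genes between 20 and 100 kb, 3 were named (30.0%, interval 6.67 to 65.2%, which takes in the 13.5% of all genes of that length). Cldn14 lies 76.3 kb from Sim2 and Cldn10 lies 80.0 kb from Abcc4, and both of these neighbours were in the higher list.

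Scaffold and polarity genes had a single named gene per family. Tjp1, which encodes ZO-1, the scaffold that ties claudins to actin, was in the higher list (chromosome 7, 65296165 to 65527850, 232 kb). Its paralog Tjp3 was in neither. Pard3 (chromosome 8, 127063381 to 127612286, 549 kb), which encodes a scaffold of the apical polarity complex, was in the higher list. Pard3b was in neither list although it spans 1004 kb, and so were Pard6a, Pard6b and Pard6g. Among the Fat cadherins, very large proteins of tissue growth and planar polarity, Fat2 (chromosome 11, 55250609 to 55337505) and Fat3 (chromosome 9, 15910189 to 16502681) were in the higher list, but Fat1 and Fat4 were in neither. In each of the Tjp, Pard and Fat families the interval of the higher-list share took in the 12.1% of all protein-coding genes.

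Some named junction genes stood beside other named genes. Of the 22 in the higher list, 9 had a flanking protein-coding gene that was also in the higher list (40.9%), against 50.2% of all 2535 genes in that list alone. Examples, with the gap to the flanking gene, were Taf4 and Cdh4 (12.8 kb), Drosha and Cdh6 (93.4 kb), and Nrp1 and Pard3 (746 kb). Ctnnd2 had Dap on one side (195 kb) and Dnah5 on the other (1700 kb). The territory of a gene, meaning the gene and, on each side, the nearer part of the gap to the next protein-coding gene, divided at its midpoint, is the span a region would fall in if regions went to the nearest gene body, a rule the sources used here do not state. All 22 junction genes of the higher list had a territory over 100 kb (22 of 58, 37.9%, interval 25.5 to 51.6%, against 23.9% of all genes with such a territory, with median gene lengths of 113 and 69.7 kb), and 0 of 29 with a smaller one were in it, against 6.96%. Cdh1 has a territory of 96.5 kb.

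Promoter CpG content was described for the 63 of 87 genes that have a RefSeq promoter window, taking the window with most CpG where a gene has several. The named genes Cdh1, Cdh2, Cdh3, Cdh4 and Cdh13 have no window, so these 63 genes include no named type I classical cadherin. The 18 named genes among them had a median of 23.0 CpG per 300 bases (range 4 to 42), and the 45 unnamed genes a median of 9 (range 0 to 47). Over all protein-coding genes the medians were 21.0 for the higher list and 13.0 for genes in neither list. Claudin promoters had a median of 7, and 24 of the 45 unnamed genes were claudins. Within the claudins the medians were 27.0 for the 3 named (range 9 to 28) and 5.50 for the 24 unnamed (range 0 to 26). Without claudins the medians were 19 for 15 named genes (range 4 to 42) and 18 for 21 unnamed genes (range 2 to 47). By the ratio of observed to expected CpG, the medians of these genes were 0.871 and 0.641. Cdh23, Cdh26 and Fat2 were named with 4 or 5 CpG in the window, and Pard6b was unnamed with 47. Some windows, such as those of Tjp1 and Pcdh15, lie at a start well inside the annotated bounds of the gene.

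**Figure D4:**
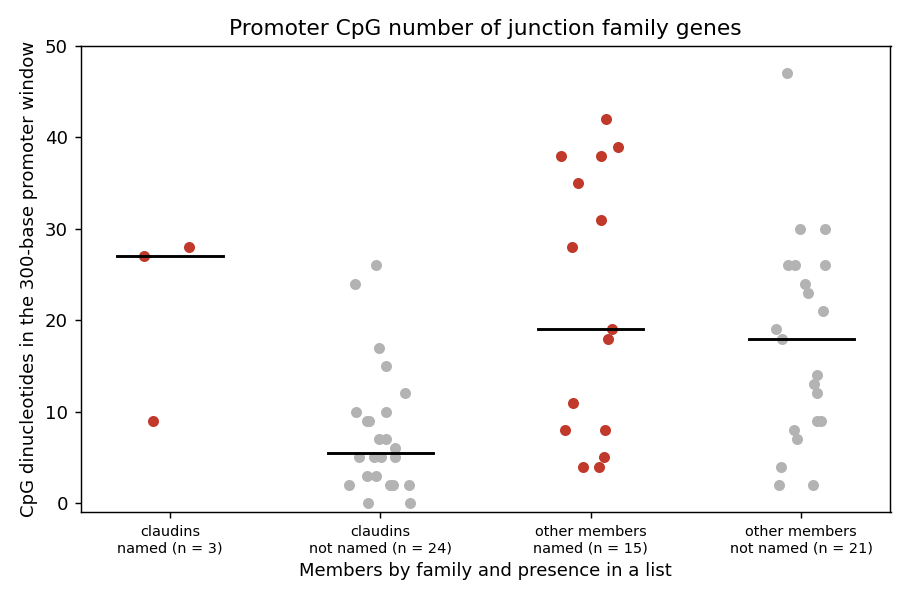
CpG dinucleotides in the 300-base promoter window (vertical axis) of 63 junction genes, divided into claudins and other genes and into those named in the higher list (red) and those in neither list (grey). The named genes Cdh1, Cdh2, Cdh3, Cdh4 and Cdh13 have no window and are not among them. Bars are medians. Named and unnamed genes other than claudins overlap, with medians of 19 and 18, and 24 claudins that were not named lie mostly at the bottom.

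The E-box form CAGGTG, which zinc finger repressors of the Snail and Zeb families bind, was sought in the same windows on both strands (a site on the other strand reads CACCTG). It was present in 3 of 18 named genes (16.7%), in 11 of 45 unnamed genes (24.4%) and in 19.4% of all protein-coding promoters. The Cldn4 window shown above holds 2 such sites, and the Pard3, Tjp1 and Cldn10 windows shown hold 0, while the second Pard3 start holds 3. Another start of Cldn14, also a named gene, holds 1. Sites at such other starts are not in these shares, which take 1 window per gene and would depend on that choice. These shares describe letters in a window and say nothing about binding.

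Other genes of delamination and of cell junctions were mostly in neither list. Those named were mostly in the higher list, which is also the larger one (2645 protein-coding genes against 331 in the lower). Of 17 regulators of delamination and mesenchymal transition, 4 were in the higher list (23.5%, interval 6.81 to 49.9%) and none in the lower, against 12.1% and 1.51% of all protein-coding genes. The higher-list intervals of this and of each other related list took in 12.1%, except that of the clustered protocadherins. The 4 genes were Zeb2 (chromosome 2, 44983512 to 45117442), a repressor of E-cadherin, Twist2, a mesenchymal basic helix-loop-helix factor, and Grhl2 and Grhl3, factors that maintain epithelial junction genes. Snai1, Snai2, Zeb1 and Twist1 were in neither list, and so were Epcam and Vim, markers of epithelium and of mesenchyme. Genes with opposed roles in epithelial identity, Zeb2 and Grhl2, thus stood in the same list.

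Of 17 partners of the cadherins, the higher list held 5 (29.4%, interval 10.3 to 56.0%) and the lower list 0. Jup encodes gamma-catenin, Ctnnbip1 an inhibitor of beta-catenin, Nectin1 and Nectin2 adhesion molecules, and Afdn the scaffold that binds nectins. Ctnnb1, the beta-catenin gene, was in neither list. Tight junction genes other than claudins had 6 of 21 in the higher list (28.6%, interval 11.3 to 52.2%), which were Ocln, the occludin gene, Jam3, Ildr2, Amotl2, Magi1 and Magi2. Magi1, a scaffold gene of 608 kb, was in the lower list too, so that this list had 1 of 21 there. Polarity complexes had Crb1, Crb2, Dlg1 and Dlg2 in the higher list, which is 4 of 20 (interval 5.73 to 43.7%), and Dlg3 in the lower.

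Planar cell polarity genes align cells within the plane of an epithelium. Of 18, 3 were named as more methylated in null cells (16.7%), against 12.1% of all protein-coding genes. As less methylated 2 were named (11.1%, interval 1.38 to 34.7%, which takes in the 1.51% of all protein-coding genes). Celsr1, Prickle2 and Fjx1 were in the higher list. Vangl1 (chromosome 3, 102153583 to 102204744) and Fzd6 (chromosome 15, 39006149 to 39038192) were in the lower list. Dsp, the desmoplakin gene, was the 1 of 12 desmosome genes in the higher list, and of 20 gap junction genes Gja5, Gjb1 and Gjb2 were there. Neither group had a gene in the lower list. Other members of the cadherin superfamily had 4 of 14 in the higher list, Celsr1, Clstn1, Clstn2 and Ret, and the lower list held 0 of these. Fjx1, Amotl2, Gjb1 and Gjb2 are under 20 kb, a length at which 6.00% of all protein-coding genes were in the higher list. They were 1 of 6 planar cell polarity, 1 of 4 tight junction and 2 of 17 gap junction genes of that length. The other related lists had 0 such genes there, among them 0 of 22 clustered protocadherins. Genes of the cadherin, catenin, claudin, Tjp, Pard and Fat families had 0 of 33.

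**Figure D5:**
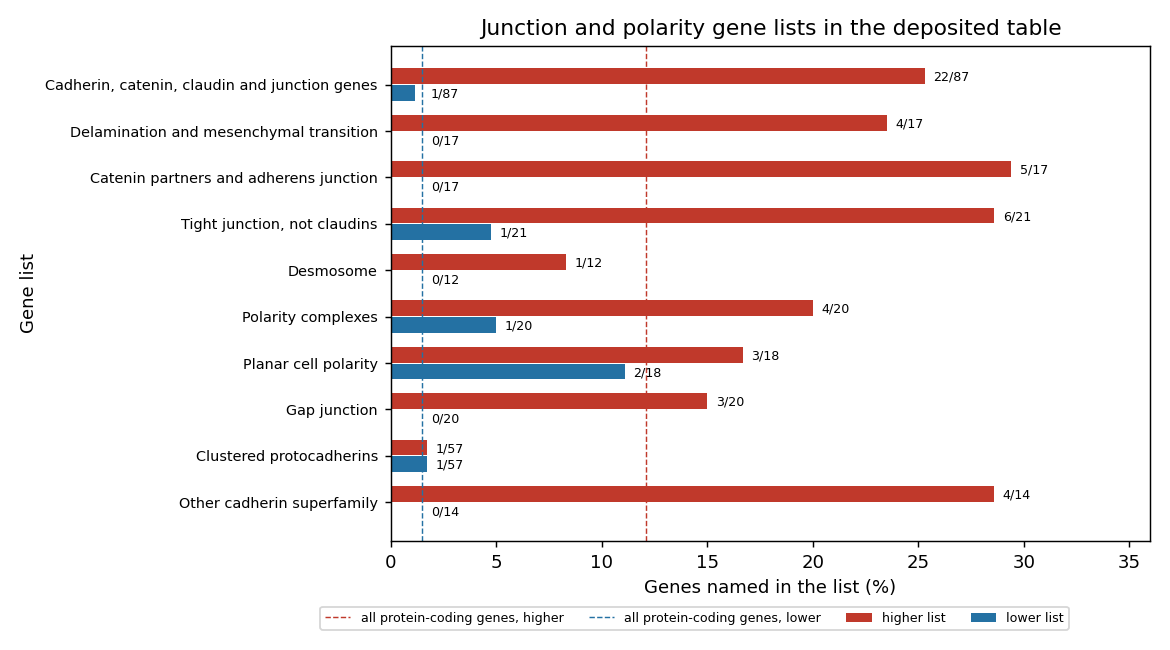
Share of genes named in the higher list (red bars) and lower list (blue bars), in percent, for the 87 junction genes and for 9 related gene lists, with counts beside the bars and dashed lines at the shares of all protein-coding genes (12.1% and 1.51%). Clustered protocadherins and desmosome genes lie below the red line, and the planar cell polarity list has the longest blue bar with 2 of 18 genes.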

How the data were processed

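The authors deposited 1 table of 9 columns, made up of gene names alone, so its values have no unit. Per the file headers, column 1 gives the genes nearest to less methylated regions of null cells, and column 2 starts those for more methylated ones. The 7 columns after it have blank headers and carry on its alphabetical order. Per the labels' protocols, 75 ng of DNA was tagmented with Tn5, bisulfite-converted and amplified by 12 PCR cycles, and paired-end reads of 150 bp were obtained, about 400000000 per library. Trim Galore, mm10 and GRCm38 are named in the submitters' processing notes. Not given in the sources used here are the aligner, region caller, thresholds, coverage minimum and nearest-gene rule. Ignoring case, names were looked up among the symbols, gene IDs and unique older symbols of 49997 RefSeq genes of GRCm38.p6, which placed 3145 of 3230 names of the higher list and 406 of 429 of the lower. All 23 junction names matched by current symbol, 21 of them written in capitals. The background is the 21883 protein-coding genes with coordinates on the autosomes, X and Y. Coordinates are those of genes, 1-based. Intervals are exact Clopper-Pearson (SciPy 1.17.1, pandas 2.3.3, Python 3.11.15). The matching was tested on simulated names. The junction genes, related lists and classes were chosen with earlier results of these data known. Every junction gene in a list is named, and unnamed ones where they are textbook junction genes; others were chosen after the lists were seen. Some genes that this rule takes are not reported here.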

Additional observations from a re-analysis of the deposited data

How the results depend on the processing

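The share of junction genes in the higher list, 25.3%, became 10.5% without genes over 100 kb and 36.5% without claudins, the latter chosen after seeing the data. Beside the 10.5%, the shares of all genes were 6.00% under 20 kb and 13.5% from 20 to 100 kb. Under the 4 other alternatives (current symbols only, all gene classes, autosomes only, genes of both lists left out) the share of junction genes was 24.7 to 28.8%, within the interval of the 25.3%. The share in the lower list, 1 gene, ranged from 1.12 to 1.92% under all 6. The share of long genes in the higher list, 53.3% over 100 kb, was 50% in the longest quartile of genes and 37.9% for territories over 100 kb, the latter added after seeing the data. The shares of all genes were 37.4%, 26.6% and 23.9%, of which the last 2 lie outside the junction genes' intervals; junction genes were the longer ones in each class. Named genes had more promoter CpG than unnamed ones by number (difference of medians 14.0) and by observed to expected ratio (0.301). Without claudins, a setting added after seeing the data, the difference in number was 1. The median ratios were then 0.871 for named and 0.641 for unnamed genes, so the ratio still differed. No paired analysis was possible because the 2 genotypes have a single library each. Coverage, levels and region thresholds could not be varied because the table holds none.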
